A study of Drosophila melanogaster with 7 samples.

Results

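Lozenge, encoded by lz (FBgn0002576), is a transcription factor of the RUNX family. The gene was chosen by its measured values, for its low level in intestinal progenitor cells without Sox21a, and is 1 of 7608 genes in the table of expression levels. Esg-GFP+ cells sorted from the adult midgut of Drosophila melanogaster at day 10 were profiled by RNA-seq, in 4 wild type libraries and 3 Sox21a-/- libraries. The GFP is a fusion to the progenitor factor Escargot (Esg), so that intestinal stem cells (ISCs) and their enteroblast (EB) daughters were collected together, with the gate set on w1118 midguts without GFP. Both groups carried Esg-GFP, and the mutant flies carried mutant Sox21a on both homologues. The study made 2 such alleles, each a deletion of nearly all of the coding region that it regards as null. Which was used in the sorted flies is not given in the sources used here. Many guts were pooled for a sample, so a value is an average over many flies and over both progenitor types.

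RUNX factors bind DNA through the Runt domain, and in Drosophila as in mammals they do so together with a partner of the core binding factor beta (CBFβ) family, which strengthens DNA binding but does not itself bind DNA. Lozenge is known from the developing eye, where it prepatterns undifferentiated cells for photoreceptor and cone cell fates, from the antenna, and from the blood, where it specifies crystal cells downstream of the Notch ligand Serrate. Sox21a, an HMG box factor, is required in the adult midgut for enteroblasts to differentiate into enterocytes.

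In the BDGP6 annotation, lz lies on the plus strand of chromosome X at 9284649 to 9303636, a span of 18988 bp that no other annotated gene overlaps. It has 2 annotated transcripts, 1 of 3468 bp in 6 exons and 1 of 3105 bp in 5 exons. The reads had been mapped to an earlier release of the genome, and the deposited value is a single level for the gene, so the transcripts were not separated. Levels are given in FPKM, in which the fragments of a gene, here single reads, are scaled to the length of its transcripts and to the mapped fragments of the library.

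lz was measured in all 7 libraries and was low in every mutant one. Its level, in wild type replicates 1 to 4, was 4.50, 4.48, 6.29 and 6.28 FPKM. In Sox21a-/- replicates 1 to 3 it was 0.0806, 0.354 and 0.0373 FPKM. The groups did not overlap, and the lowest wild type library was 12.7-fold above the highest mutant library. The mean was 5.39 ± 1.04 FPKM (SD, n = 4) in wild type and 0.157 ± 0.172 FPKM (SD, n = 3) in Sox21a-/-, so that 2.92% of the wild type level was left, a ratio of 34.3. Since lz was chosen on this contrast, these values are a description, and no test of them is given. In bulk RNA, fewer cells with lz and less lz RNA in each cell cannot be told apart.

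**Figure D1:**
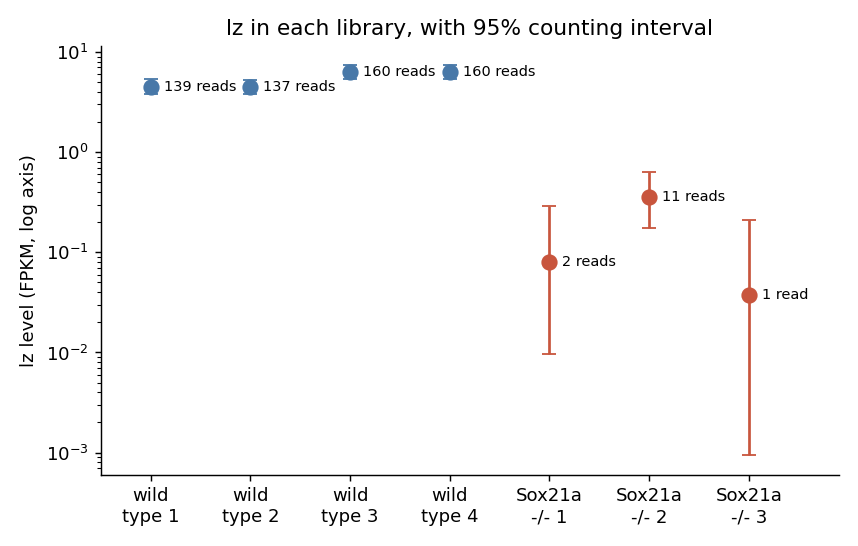
Level of lz in each library (FPKM, log axis), with wild type in blue and Sox21a-/- in red; bars are the 95% counting interval of the approximate number of reads printed beside each point. The 4 wild type libraries sit between 4.48 and 6.29 FPKM, and the 3 Sox21a-/- libraries lie between 0.0373 and 0.354 FPKM.

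The reads behind these levels are few in the mutant. The table holds no counts, but the low values of each library fall on steps of 1 read, from which a depth of about 8505719 to 10624060 reads per library was recovered. With the shorter transcript as length, lz corresponded to about 139, 137, 160 and 160 reads across wild type libraries and to about 2, 11 and 1 reads in Sox21a-/- replicates 1 to 3. Pooled over libraries and scaled to depth, the rate of lz reads in wild type was 31.1 times that in the mutant, with a 95% counting interval of 18.4 to 57.3 (exact binomial). These intervals cover counting error only. The level left in the mutant rests on about 14 reads in all, against about 596 in wild type, and is poorly fixed at this depth.

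Among the mutant libraries, Sox21a-/- replicate 2 held most of the lz reads. Its rate of lz reads was 4.41 times that of Sox21a-/- replicate 1 (95% counting interval 0.963 to 41.0) and 9.54 times that of Sox21a-/- replicate 3 (1.39 to 411). Without it, the mean left in the mutant was 1.09% of wild type, a ratio of 91.4 in place of 34.3. The size of the fold thus rests on this library. The direction was fixed by the choice of lz. Sox21a-/- replicates 1 and 3, at 2 reads and 1 read, did not differ beyond counting error (ratio 2.16, interval 0.113 to 128).

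Among the wild type libraries lz took 2 levels. Wild type replicates 1 and 2 were at the same level within counting error (ratio 1.0, 95% interval 0.787 to 1.28), and so were replicates 3 and 4 (1.0, 0.797 to 1.25). Replicate 2 was at 0.714 times replicate 4 (0.565 to 0.903). These pairs match the recovered depth, which was higher in Sox21a-/- replicate 2 and in wild type replicates 1 and 2, at about 10509195 to 10624060 reads, and lower in the other 4 libraries, at about 8505719 to 9191674 reads. What else separates the depth levels is not given in the sources used here. Both levels hold both genotypes, and the ratio of wild type to mutant lz was 12.7 among the higher-depth libraries (2 against 1) and 107 among the lower-depth libraries (2 against 2). Wild type replicates 3 and 4 were also closer to each other over all genes than any other pair within a group, with a chi-square per gene of 2.34 against 6.62 to 21.5 for the other 8 pairs. They differed beyond the sampling noise of reads, which repeat libraries of a single sample could also do, and the methods of the study describe fewer biological replicates than there are wild type libraries. Whether both are separate biological samples is thus not settled. They were kept as 2 samples, as labelled. With both averaged into 1 the wild type mean of lz was 5.09 ± 1.04 FPKM (SD, n = 3).

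Within wild type progenitors lz was a gene of modest abundance. Of the genes above 0 in a library, 31.9% to 40.5% lay below lz in the 4 wild type libraries. In the mutant libraries, in order of replicate, 0.0854%, 1.30% and 0.0176% lay below it, so that in Sox21a-/- replicate 3 it was next to the lowest value of the library.

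Many other genes are listed at exactly 0 in some library, which made up 25.7% of all values and can be a failed estimate. lz is not among them. The fall of lz was therefore set beside the 2460 tested genes (mean of 1 FPKM or more over the libraries) that were at 0 in no library. As lz was chosen on this contrast and reached that mean only through wild type, its rank is a description. Among these 2460 genes lz had the largest fall of all, both by the ratio of group means (log2 ratio -5.10) and by the difference on log2(FPKM + 1) (-2.46), against medians of -0.02 and -0.0069. On the latter scale CG34330 came next (-2.15), followed by lncRNA:roX1 (-1.96), Nepl4 (-1.79) and fng (-1.70). When genes with zeros were let in, lz was at rank 235 of 6565 by this scale, and every gene ranked above it was listed at 0 in at least 1 library. The scale with a pseudocount of 1 understates the change of a gene at this level.

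**Figure D2:**
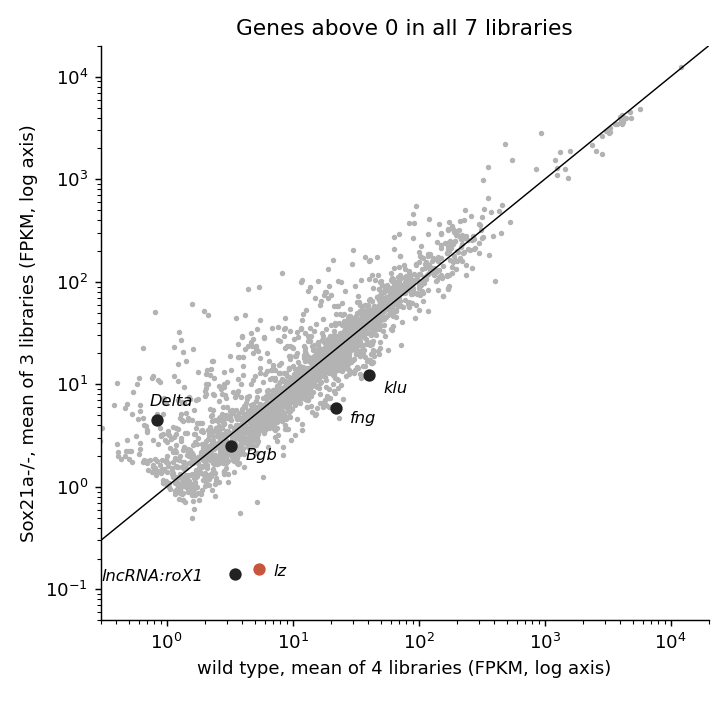
Mean level in the 4 wild type libraries (x axis) against the 3 Sox21a-/- libraries (y axis), in FPKM on log axes, for each gene above 0 in all 7 libraries; the line marks equal levels. lz, in red, lies at 5.39 and 0.157 FPKM, and only lncRNA:roX1 lies beside it below the cloud.

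lncRNA:roX1, chosen for mention after its values were seen, is a non-coding RNA of the male dosage compensation complex. In wild type replicates 1 to 4 roX1 stood at 5.25, 3.29, 2.96 and 2.58 FPKM, against 0.0718, 0.318 and 0.0332 FPKM in the mutant replicates. Like lz it was low in all 3 mutant libraries and least low in Sox21a-/- replicate 2. The yolk protein genes Yp1, Yp2 and Yp3, which are expressed in females, overlapped between the groups, with Yp1 at 64.2, 25.7, 12.5 and 15.5 FPKM across wild type libraries against 20.6, 77.5 and 15.6 FPKM across mutant ones. dsx (doublesex), looked at beside these, had 12.1, 7.93, 7.02 and 0 FPKM in wild type and 3.06, 5.43 and 4.75 FPKM in Sox21a-/-. Its wild type values other than the listed 0 lay above every mutant one. Within wild type, lz was highest in replicates 3 and 4, where roX1 was lowest. The sex of the sorted flies is not given in the sources used here, and its part in the lz values was not tested.

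The other RUNX genes and the CBFβ partners were examined next, to see whether the fall was shared by the family. Of 5 such genes, run, Bro and Bgb have a value, and RunxA and RunxB were not analysed here. run, the pair-rule gene that gave the Runt domain its name, was at 0.784, 0.0418, 0.903 and 0.749 FPKM across wild type libraries against 1.45, 0.374 and 1.48 FPKM across mutant ones. The groups overlapped, and the mutant mean was 1.78 times that of wild type (exact permutation test over 35 splits, two-sided, p = 0.314). run lay under the minimum of 1 FPKM, as a mean over libraries, for the test across all genes. The smallest p that 35 splits allow is 0.0286.

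The partners were present in both groups. Bgb (Big brother), which encodes a CBFβ protein, was at 4.24, 4.01, 2.18 and 2.51 FPKM across wild type libraries against 3.27, 2.44 and 1.88 FPKM across mutant ones. The groups overlapped, and the difference on log2(FPKM + 1) was -0.25 (SE 0.33, limma, Benjamini-Hochberg adjusted p = 0.760). Bro (Brother), the other CBFβ gene, was listed at 0 in wild type replicate 1 and Sox21a-/- replicate 3, with 1.05, 2.31 and 2.31 FPKM in the other wild type libraries and 1.95 and 1.04 FPKM in the other mutant libraries. Its difference was -0.26 (SE 0.61, limma, Benjamini-Hochberg adjusted p = 0.889). Neither was called at an adjusted p of at most 0.05, a rule that called 1.39% of the 6565 genes tested as higher in Sox21a-/- and 1.05% as lower (91 and 69 genes). Set against Bgb in the same library, lz was at 1.06, 1.12, 2.88 and 2.50 times its level in wild type and at 0.0247, 0.145 and 0.0199 times its level in the mutant.

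**Figure D3:**
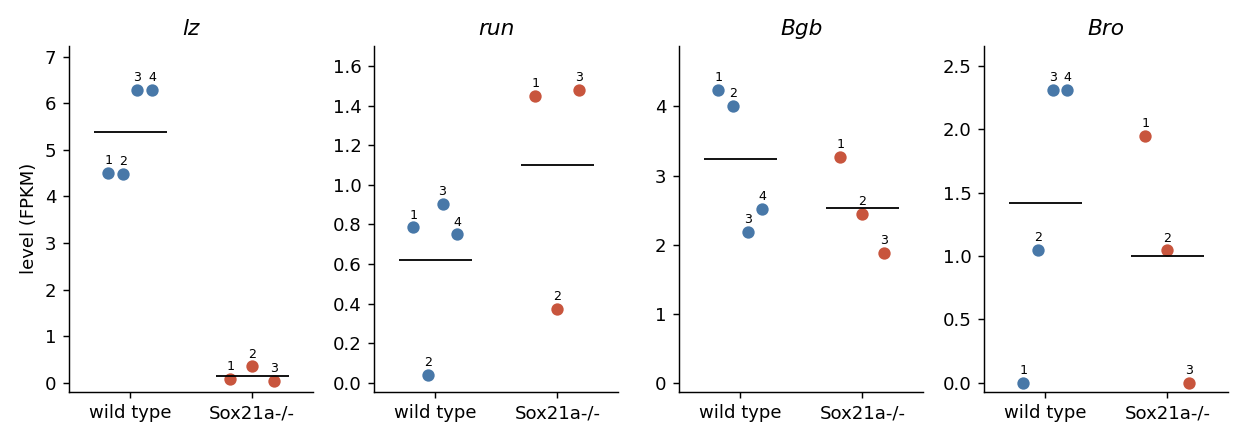
Levels (FPKM) of lz, run and the CBFβ genes Bgb and Bro by group; points are libraries with their replicate number, lines are group means, and each panel has its own axis from 0. The groups are apart for lz and overlap for run, Bgb and Bro.

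The genes around lz on chromosome X were compared as well, since position had no part in the choice of lz. The 5 nearest genes with a value on either side were all tested, and 0 of 10 were called (limma, Benjamini-Hochberg adjusted p of at most 0.05), with 1 (Aladin) at an unadjusted limma p under 0.05. Over all 6565 genes tested, 1.39% were called higher, 1.05% were called lower and 14.3% had an unadjusted p under 0.05. Counts among 10 genes cannot be told apart from these shares. c11.1, whose annotated end lies 1.5 kb before the start of lz, was at 16.0, 15.7, 18.5 and 16.4 FPKM across wild type libraries against 12.1, 21.0 and 19.8 FPKM across mutant ones, a difference of 0.04 on log2(FPKM + 1) (SE 0.24, limma, Benjamini-Hochberg adjusted p = 0.940). c12.1, which starts 14.3 kb after lz, was at 22.9, 18.6, 19.8 and 23.6 FPKM across wild type libraries against 17.9, 16.1 and 13.8 FPKM across mutant ones, lower in 3 of 3 mutant libraries than in any wild type library (difference -0.39, SE 0.19, limma, Benjamini-Hochberg adjusted p = 0.437). The groups were thus apart for c12.1, but by a small step that was not called. The share of all genes with groups apart is not given here. ric8b, annotated as a pseudogene 23.3 kb before lz, was also apart, at 3.28 to 4.59 FPKM across wild type libraries against 2.16 to 2.83 FPKM across mutant ones (difference -0.44, SE 0.27, limma, Benjamini-Hochberg adjusted p = 0.591). Cfp1, Aladin, snoRNA:CG16892-a, c12.2 and BCL7-like were each listed at 0 in at least 1 library. Aladin was among these at 3.12 to 3.90 FPKM across wild type libraries against 3.39, 0 and 0 FPKM across mutant ones. The remaining neighbours, CG34026 and the ribosomal protein gene RpS28b, lie 230.2 and 251 kb away, and their groups overlapped. The region between holds genes not analysed here.

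**Figure D4:**
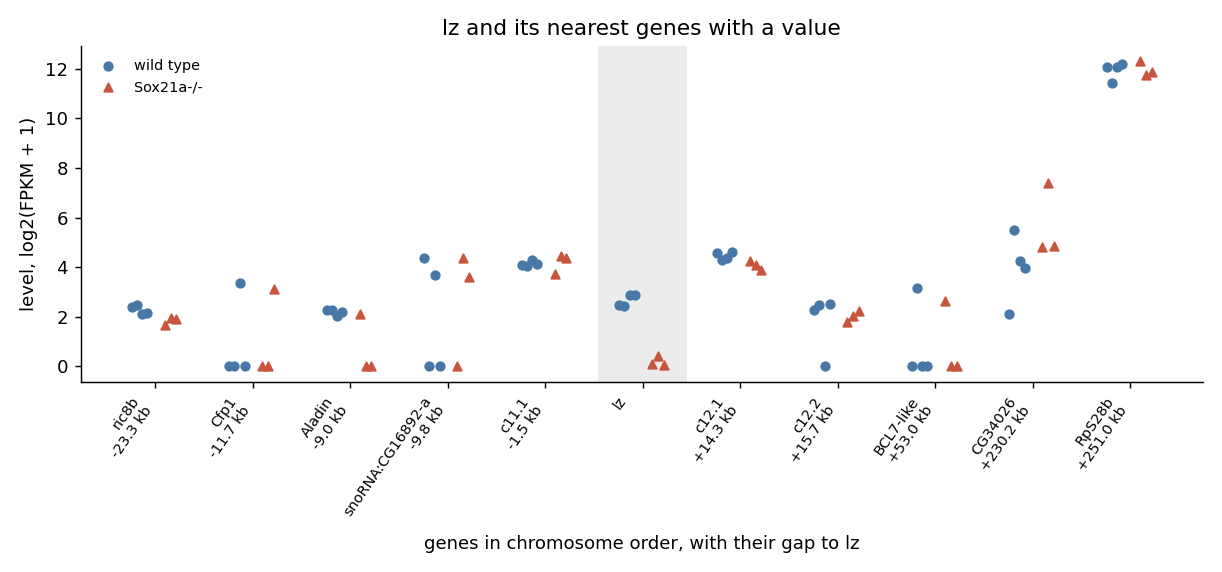
Levels as log2(FPKM + 1) of lz (shaded) and the 5 nearest genes with a value on either side, in chromosome order with the gap to lz in kb; circles are wild type and triangles Sox21a-/- libraries. The gap between groups at lz is -2.46, against 0.04 at c11.1 and -0.39 at c12.1.

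Genes tied to Lozenge in the eye, antenna and blood were taken from lists written by hand. Of 14 genes listed as partners or regulators, 7 have a value and 0 of these were called (limma, Benjamini-Hochberg adjusted p of at most 0.05). Their median difference was -0.11, against 0.04 over all genes tested. An unadjusted limma p under 0.05 was found for 1 of the 7, near the share of 14.3% over all genes tested. The 1 gene was aop, which encodes the ETS repressor Yan, at 16.5 to 18.2 FPKM across wild type libraries against 21.2, 27.6 and 30.0 FPKM across mutant ones (difference 0.54, SE 0.18, limma, Benjamini-Hochberg adjusted p = 0.284). N, the Notch receptor, was listed at 0 in wild type replicate 1 and was at 7.67 to 12.5 FPKM in the other wild type libraries and 5.64, 6.69 and 12.1 FPKM in the mutant. Su(H), the DNA-binding factor of the Notch pathway, was listed at 0 in the same library and was otherwise at 3.06 to 3.60 FPKM across wild type libraries against 2.61 to 3.56 FPKM across mutant ones. yki, the coactivator of the Hippo pathway, was at 37.2 to 51.4 FPKM across wild type libraries against 32.4 to 48.7 FPKM across mutant ones. The groups overlapped for all 3 of these. ush, a cofactor of GATA factors, pnt, the ETS activator, and ttk, a BTB zinc finger repressor, were each listed at 0 in at least 2 libraries.

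Of 13 genes listed as targets of Lozenge, or as acting with it in crystal cells and the eye, 4 have a value, and 1 was called, as lower in the mutant. An unadjusted limma p under 0.05 was found for 2 of the 4. Over all 6565 genes tested, 1.05% were called lower, 1.39% were called higher and 14.3% had an unadjusted p under 0.05. A list of 4 genes is too short to set against these shares. The called gene was klu (klumpfuss), a zinc finger gene expressed in enteroblasts, at 43.0, 29.7, 49.0 and 41.0 FPKM across wild type libraries against 9.14, 11.4 and 16.6 FPKM across mutant ones. All 3 mutant libraries lay below all wild type libraries, with means of 40.7 ± 8.05 (SD, n = 4) and 12.4 ± 3.82 FPKM (SD, n = 3) (difference -1.66, SE 0.27, limma, Benjamini-Hochberg adjusted p = 0.0388). Its level in the mutant was 30.4% of wild type, against 2.92% for lz. The call of klu was lost in 9 of 18 alternatives, among them averaging wild type replicates 3 and 4 (adjusted p = 0.105) and leaving out any of wild type replicates 1, 3 and 4 (adjusted p 0.0758, 0.0990 and 0.107) or of Sox21a-/- replicates 1 and 2 (0.0895 and 0.0964), with the difference between -1.87 and -1.47 throughout (limma, Benjamini-Hochberg). dpn (deadpan), which encodes a bHLH repressor, was at 3.17, 2.17, 2.11 and 1.80 FPKM across wild type libraries against 1.21, 0.462 and 1.12 FPKM across mutant ones, without overlap (difference -0.78, SE 0.30, limma, Benjamini-Hochberg adjusted p = 0.331). aos (argos), the secreted EGFR antagonist, was listed at 0 in 2 libraries.

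**Figure D5:**
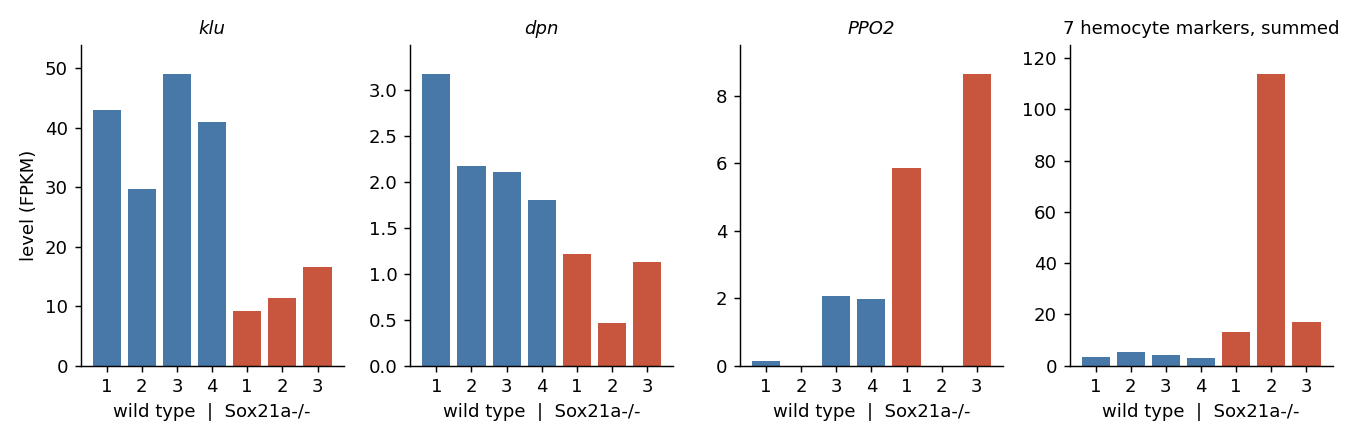
Levels (FPKM, axes from 0) of klu, dpn, PPO2 and the sum of 7 hemocyte markers in wild type replicates 1 to 4 (blue) and Sox21a-/- replicates 1 to 3 (red). klu and dpn are lower in every mutant library, while the hemocyte sum reaches 113.9 FPKM in Sox21a-/- replicate 2.

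Because lz marks crystal cells in the blood, markers of blood cells were examined in the same libraries. PPO2, the prophenoloxidase of crystal cells, stood at 0.135, 0, 2.08 and 1.97 FPKM across wild type libraries, against 5.86, 0 and 8.66 FPKM across mutant ones, so that 2 of the 3 libraries with little lz lay above the wild type range of PPO2 and 1 was listed at 0 (difference 1.17, SE 0.93, limma, Benjamini-Hochberg adjusted p = 0.622). The crystal cell genes PPO1 and peb were not analysed here. Of 12 hemocyte markers, 8 have a value, all 8 had a higher mean in the mutant and 0 were called (limma, Benjamini-Hochberg), with 3 at an unadjusted p under 0.05 and a median difference of 1.77. Over all 6565 genes tested, 51.5% had a higher mean on the log2 scale in the mutant, 14.3% had an unadjusted p under 0.05 and the median was 0.04. crq stood apart as the most abundant of them, at 110.5 to 129.5 FPKM in 3 wild type libraries, with 0 in wild type replicate 1, and 122.8 to 140.8 FPKM in the mutant. The other 7 (the phagocytic receptors NimC1, eater and Sr-CI, the collagen IV chains Col4a1 and vkg, the peroxidase Pxn and the surface protein He) summed to 3.08 to 5.39 FPKM in wild type and to 13.1, 113.9 and 17.0 FPKM in Sox21a-/- replicates 1 to 3. Pxn was at 0 in Sox21a-/- replicate 1 and in wild type replicates 1 and 3, and He was at 0 in 3 wild type libraries and in Sox21a-/- replicate 3. Sox21a-/- replicate 2 thus had both the highest hemocyte sum and the most lz of the mutant libraries, at 11 reads. A part of blood cells in the lz values was not tested.

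Among transcription factors of the midgut, 35 were listed, 18 have a value and were tested, and 1 was called, which was klu again. An unadjusted limma p under 0.05 was found for 4 of the 18. Over all 6565 genes tested, 1.05% were called lower, 1.39% were called higher and 14.3% had an unadjusted p under 0.05. Counts among 18 genes cannot be told apart from these shares. The median difference of the 18 was 0.19, against 0.04 over all genes tested. The 8 of them at 0 in no library can be set beside lz directly. lab, the homeotic gene of the copper cell region, was at 13.2 to 34.1 FPKM across wild type libraries against 7.64 to 12.6 FPKM across mutant ones, a ratio of 2.07. exd and Jra, which encode a homeodomain cofactor and the AP-1 subunit Jun, were at 1.07 and 0.823 times the mutant level. sc (scute), a proneural bHLH factor, was not called and had 1.14, 1.07, 0.276 and 0.275 FPKM in wild type and 4.07, 3.96 and 3.68 FPKM in Sox21a-/-. None of these 8 had a fall near the 34.3-fold of lz, and klu, at 3.29-fold, came closest.

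Of 21 genes of the Notch pathway, which acts upstream of lz in the blood, 12 have a value and 10 were tested. Among these, 0 were called (limma, Benjamini-Hochberg), with 5 differences in either direction. An unadjusted limma p under 0.05 was found for 2 of the 10, near the share of 14.3% over all genes tested. The 2 genes were fng and Delta, named here after their values were seen. fng (fringe), the glycosyltransferase that modifies Notch, was at 15.6, 33.2, 20.6 and 18.3 FPKM across wild type libraries against 6.86, 5.14 and 5.55 FPKM across mutant ones (difference -1.70, SE 0.31, limma, Benjamini-Hochberg adjusted p = 0.0530). Delta, the Notch ligand of ISCs, was at 1.20, 0.727, 0.928 and 0.518 FPKM across wild type libraries against 3.57, 3.77 and 6.13 FPKM across mutant ones (difference 1.56, SE 0.30, limma, Benjamini-Hochberg adjusted p = 0.0622). All 3 mutant libraries lay above the wild type range for Delta and below it for klu, while the groups overlapped for N and Su(H). By staining, the study saw enteroblasts build up in the mutant midgut with age, and it also reports mildly more Delta-positive cells within Sox21a mutant clones. The proportion of ISCs and EBs in the sorted cells was not measured by these data, and its part in the lz level was not tested.

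Markers of other midgut cells gave 0 calls each, from 17 tested enterocyte genes, 8 enteroendocrine genes, 1 visceral muscle gene and 2 tracheal genes, with 3 enterocyte genes and none of the others at an unadjusted p under 0.05 (limma). Over all genes tested, 14.3% had an unadjusted p under 0.05. The enterocyte genes nevertheless had a median difference of -0.99, with 11 of 17 lower in the mutant, against 0.04 over all genes tested. Their summed level went the other way, at 694.1 to 3311 FPKM in the wild type libraries and 2814 to 5603 FPKM in the mutant ones. The enteroendocrine genes had a median of 0.07, with 4 in either direction. The part of these cells in the lz values was not tested. esg, the progenitor marker used for sorting, was not analysed here. The RNA of Sox21a was listed at 0, 0, 230.4 and 232.9 FPKM across wild type libraries against 96.3, 50.6 and 0 FPKM across mutant ones. With every value kept, the groups overlapped. With the zeros treated as missing, the values left (2 in either group) were lower in the mutant and Sox21a was called (difference -1.72, limma, Benjamini-Hochberg adjusted p = 0.0347), the direction of the labels. The 2 wild type values left are replicates 3 and 4, which may not be separate biological samples. That call can thus rest on 1 wild type sample. A 0 was listed in both groups, and 2 mutant libraries had a Sox21a level although both alleles lack nearly all of the coding region. The check of the genotype labels is thus partial, and every direction given for lz rests on the labels.

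The 10 genes most like lz by Pearson correlation of log2(FPKM + 1) over the 7 libraries were Ude, CG7137, Mtr4, CG11504, spn-E, CG15771, CG7488, CG3434, INPP5E and CG12499, with r from 0.987 to 0.969. As 35 of 2459 genes had r above 0.95 and all points share the 2 groups, any gene that is steadily lower in the mutant scores high, and no test is given. Ude was at 28.6 to 30.4 FPKM across wild type libraries against 12.4 to 13.6 FPKM across mutant ones. spn-E, an RNA helicase gene of the piRNA pathway, was at 1.29 to 1.88 FPKM across wild type libraries against 0.437 to 0.780 FPKM across mutant ones. The ratio of wild type to mutant over these 10 genes was 1.42 to 2.71, so they share the direction of lz and not its size. Their order within a group was not always that of lz. CG3434, as an example, was lowest among wild type libraries in replicate 3 (20.0 FPKM), where lz was highest. spn-E was highest among mutant libraries in Sox21a-/- replicate 2, as lz was. With a pseudocount of 0.1, 7 of the 10 were again among the first 10.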

How the data were processed

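RNA-seq values of 4 wild type and 3 Sox21a-/- libraries of Esg-GFP+ midgut cells (day 10) were used as deposited. The authors mapped single-end reads with TopHat2 2.0.10 to BDGP5 (Release 5) and computed FPKM per gene with Cufflinks 2.2.1. FPKM divides by transcript length and library size, keeps no counts, and gave an exact 0 in 23.0% to 28.5% of the genes of a library. Names and positions came from the BDGP6 annotation by FlyBase ID (7339 of 7608 matched). Reads were recovered from FPKM steps with an assumed fragment of 200 bases, and 72.1% to 78.0% of values below 15 reads were within 0.1 of a whole number. lz was described without a test.

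Other genes were tested with limma 3.58.1 (R 4.3.3; trend and robust) on log2(FPKM + 1) for the 6565 genes whose mean reached 1 FPKM, two-sided, with Benjamini-Hochberg adjustment over all of them, and with an exact permutation test over 35 splits. A sample is a pool of guts, and p-values measure only the spread between these samples. The members and lists were chosen with earlier results of these data known. Named genes were the RUNX genes, Sox21a, list members, neighbours and the genes most like lz. As alternatives, the pseudocount was set to 0.1 or 0.01, the filter was dropped or raised to 2 FPKM, and quantile or median-ratio scaling, no trend, zeros as missing, averaged replicates, depth level, a replicate block and leaving out each library were tried. The other steps ran in Python 3.11.15 (matplotlib 3.10.9, scipy 1.17.1, pandas 2.3.3, numpy 2.4.6).

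Tested on simulated data for this comparison, limma recovered 200 of 200 genes changed by 1.5 on the log2 scale without zeros (10 false of 210 calls). It recovered 47 with the deposited zeros (59 false of 106 calls) and 152 with zeros as missing (9 false of 161 calls). These counts hold for the spread between libraries that was set, which is not given here. Among measured genes at 0 in no library, klu was called at -1.66 (SE 0.27). Those not called included NimC1 at 1.95 (SE 0.68), vkg at 2.06 (SE 0.77) and Sr-CI at 2.48 (SE 0.56). Recovery at such larger spreads was not tested.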

Additional observations from a re-analysis of the deposited data

Results flagged for a closer look

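Of 44 genes examined, 7 had 1 wild type library far from the other 3. The rule would flag about 2.2 by chance among independent values with a normal spread. Listed zeros do not follow such a spread, so the 2 counts cannot be compared. lz was not among them. A value of 0 stood against higher values in the other 3 libraries for ush in wild type replicate 2 (0 FPKM against 9.61 to 10.9 FPKM), Su(H) in wild type replicate 1 (0 FPKM against 3.06 to 3.60 FPKM) and crq in wild type replicate 1 (0 FPKM against 110.5 to 129.5 FPKM). A single library above 0 stood against 3 at 0 for pnt in wild type replicate 3 (21.7 FPKM), He in wild type replicate 2 (0.403 FPKM), Cfp1 in wild type replicate 3 (9.38 FPKM) and BCL7-like in wild type replicate 2 (8.03 FPKM). All 7 cases thus involve a listed 0.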

How the results depend on the processing

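The choice of lz fixed the direction of its difference, which is no sign of stability. Over the 12 alternatives that could shift the value on log2(FPKM + 1) and kept the pseudocount, it lay between -2.58 and -2.37, and between -2.58 and -2.39 with a library left out. It moved to -4.59 and -5.52 with pseudocounts of 0.1 and 0.01 and to -5.10 as the log2 ratio of mean FPKM. Deviations of same-numbered libraries correlated at 0.0050, 0.37 and 0.20 for numbers 1 to 3 over 2460 genes. Pairs with different numbers ran from -0.28 to 0.27, so the value for number 2 was the highest of all. Whether the replicate numbers pair the libraries is thus not settled. With the replicate block, lz was at -2.39, and calls over all genes fell from 91 higher and 69 lower to 1 and 2. Treating zeros as missing gave 344 and 269 calls, the depth level as a covariate 55 and 43, and averaging wild type replicates 3 and 4 gave 51 higher. With each library left out there were 68 to 119 higher and 45 to 93 lower calls. Quantile scaling moved the median of all genes from 0.04 to -0.07. The target list and the midgut factor list had 0 in place of 1 call without trend or robust settings, with averaging, the depth covariate and the replicate block, and 0 to 1 with a library left out. With zeros as missing the midgut factors had 3 calls, the Notch list 2, and partners and hemocyte markers 1 each. The Notch list had 1 with either smaller pseudocount and without trend. Hemocyte markers and neighbours had 0 to 1 calls with a library left out (Sr-CI without Sox21a-/- replicate 2 and Aladin without Sox21a-/- replicate 1).

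Genes uncalled in the reported comparison changed sign as follows, on the log2 scale. With zeros as missing, Sox21a was at -1.72 and was called (limma, Benjamini-Hochberg adjusted p = 0.0347), with replicates 3 and 4 as its only wild type values. In the same setting, uncalled, N was at -0.27, Su(H) at -0.085, ttk at 0.18, snoRNA:CG16892-a at -0.028 and c12.2 at -0.41. With the depth covariate, Sox21a was at -0.46, ttk at 0.12, Cfp1 at -0.080 and RpS28b at -0.015. With averaging, aos was at -0.052, c12.2 at -0.16 and BCL7-like at -0.17, and aos was at -0.065 with a pseudocount of 0.01. With the replicate block, aos was at -0.31, Cfp1 at -0.089, snoRNA:CG16892-a at -0.019 and BCL7-like at -0.17. With a library left out, the ranges were -0.79 to 0.54 for BCL7-like, -0.63 to 0.17 for Bro, -0.84 to 1.04 for Cfp1, -0.27 to 0.98 for N, -0.13 to 0.16 for RpS28b, -1.14 to 2.22 for Sox21a, -0.085 to 0.65 for Su(H), -0.56 to 1.68 for aos, -0.096 to 0.28 for c11.1, -0.41 to 0.43 for c12.2, -0.20 to 1.99 for snoRNA:CG16892-a, -1.56 to 1.45 for ttk, -1.20 to 0.82 for ush and -0.20 to 0.083 for yki. The causes were not tested. A depth of about 8505719 to 10624060 reads leaves 1 to 11 reads of lz in a mutant library, which limits the fold.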
